A study of Mus musculus with 11 samples.

Results

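Itgbl1 (integrin subunit beta like 1, ENSMUSG00000032925.16) was measured by RNA-seq in whole main olfactory epithelium (MOE), in mice with 2, 1 or 0 intact copies of the Taar2-Taar9 receptor cluster. It is 1 of 24421 genes in the count table and 1 of the 16574 that passed the filter on low counts. The gene was chosen by its lower level in both deletion genotypes than in wild type mice, so its differences from wild type are given as a description, with no test. The study made 3 wild type, 4 heterozygous and 4 homozygous libraries from whole MOE with polyA selection and a strand-specific kit. The deleted allele lacks the genes from Taar2 to Taar9 together with TAAR enhancer 2, which lies inside the cluster, while TAAR enhancer 1 is kept. The allele is present in every cell of the animal, and no group carried a transgene or Cre driver. The labels give strain C57BL/6 and age P1-P2 for all 3 groups, whereas the methods of the study describe mixed C57BL/6J and 129 backgrounds, both sexes and an older postnatal age for this line. This difference could not be settled here.

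Itgbl1 encodes a secreted protein built of EGF-like repeats that resemble the stalk of integrin beta subunits. It has neither the membrane-spanning segment nor the ligand-binding head of an integrin, and it is best known from cartilage, bone and connective tissue, where it has been linked to chondrocyte differentiation. The MOE is a mixed tissue in which olfactory sensory neurons, supporting cells, glands and basal cells lie on connective tissue, cartilage and bone. In whole tissue, fewer cells of a type and less RNA per cell cannot be told apart.

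In mm10, Itgbl1 occupies chromosome 14 from 123659971 to 123975618 on the plus strand, a span of 315.6 kb with 3 annotated transcripts in GENCODE M21. Transcript Itgbl1-201 has 11 exons, and the exons of all transcripts cover 4229 bases. The Taar cluster is on another chromosome, chromosome 10. Upstream, the start of Nalcn lies 32826 bases from the start of Itgbl1, and Nalcn is read from the opposite strand. Downstream, the end of Fgf14 lies 2288 bases beyond the end of Itgbl1, also on the opposite strand, and the RefSeq spans of both genes overlap by 4425 bases.

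The libraries held between 9239866 and 14632525 counts. No read of the 4 Taar genes that passed the filter was counted in any homozygous library, which allows up to 0.327 CPM (counts per 1000000 scaled counts of a library) in the library with the highest limit, 3 counts per library. The 3 wild type libraries held 41 to 68 such reads and the 4 heterozygous libraries 14 to 55. Of the Taar genes under the filter, Taar2, Taar7d and Taar9 had a few reads in homozygous libraries, at most 0.147, 0.0841 and 0.258 CPM. Omp, the marker of mature olfactory sensory neurons, lay between 346 and 737 CPM over all libraries. Homozygous replicate 2 stood apart, since the ribosomal RNA precursor Rn45s took 25.8% of its counts and its scaling factor was 0.756, against 1.01 to 1.06 in the other libraries. Its Itgbl1 level was 14.0 CPM of total counts and 18.5 CPM after scaling.

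Itgbl1 was read at moderate depth in every library, with 323, 563 and 512 counts in wild type, 325, 299, 266 and 218 in heterozygous and 224, 170, 336 and 279 in homozygous libraries. After scaling, the wild type libraries had 29.9, 45.1 and 41.3 CPM, a mean of 38.8 ± 7.91 CPM (SD, n = 3). The heterozygous libraries had 22.1, 23.5, 25.2 and 23.3 CPM, a mean of 23.5 ± 1.28 CPM (SD, n = 4), or 60.6% of the wild type mean. The homozygous libraries had 18.8, 18.5, 24.6 and 24.0 CPM, a mean of 21.5 ± 3.27 CPM (SD, n = 4), or 55.4% of the wild type mean. All 3 wild type libraries were above all 8 deletion libraries, and the lowest wild type library was 4.72 CPM above the highest deletion library. Of all tested genes, 69 (0.416%) showed wild type libraries all above deletion libraries, and the choice of Itgbl1 used this contrast.

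**Figure D1:**
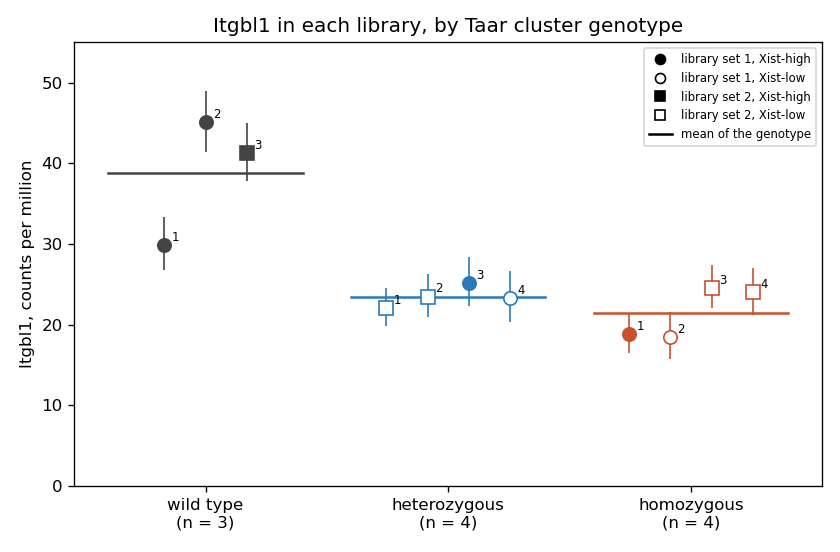
Itgbl1 in CPM (y axis) for each library, by genotype (x axis), with replicate numbers. Bars are exact Poisson 95% intervals for counting error only, lines are genotype means, filled symbols are Xist-high libraries, and circles and squares are library sets 1 and 2. The wild type libraries lie between 29.9 and 45.1 CPM and the deletion libraries between 18.5 and 25.2 CPM.

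On the log2 scale the difference from wild type was -0.85 (SE 0.17) for homozygous and -0.72 (SE 0.17) for heterozygous libraries. Both comparisons use the same 3 wild type libraries. No gene passed an adjusted p of 0.05 in edgeR's quasi-likelihood test of homozygous against wild type (0% of 16574 genes) or of heterozygous against wild type (0%). The 4 tested Taar genes, which the deletion removes, did not pass it either, at homozygous log2 differences from -7.41 to -5.93. DESeq2 called 8 genes in the first and 3 in the second comparison. A fit of the homozygous and wild type libraries alone, with the replicate number as a block, called 39. No call of Itgbl1 itself is read from these fits, since the gene was chosen by the same contrast. At an unadjusted p under 0.05, 1.21% of genes were lower and 1.81% higher in homozygous than in wild type libraries, and 0.495% were lower and 1.75% higher in heterozygous than in wild type libraries.

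The heterozygous and homozygous levels were not separated. The homozygous minus heterozygous difference was -0.13 on the log2 scale (SE 0.16), with a 95% interval from -0.48 to 0.23, which corresponds to a homozygous level between 0.717 and 1.17 times the heterozygous level. The edgeR test gave an adjusted p of 1. The two-sided exact permutation test of the 4 against 4 CPM values gave p = 0.343, where the smallest p this design allows is 0.0286. The ranges overlapped, with 2 homozygous libraries below and 2 within the heterozygous range. No gene passed an adjusted p of 0.05 in this comparison either (0%, 2 genes by DESeq2), and at an unadjusted p under 0.05 the shares were 0.241% lower and 0.32% higher in homozygous libraries. The labels do not say that libraries came from separate litters, so these p-values measure the spread between samples only.

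Within genotypes Itgbl1 varied less than most genes of its level. Its SD within genotypes was 0.21 on the log2 CPM scale, at percentile 29.2 of the 5704 genes within 2-fold of its mean level, whose median SD was 0.274. Wild type libraries spread most, with a coefficient of variation of 20.4%, against 5.45% in heterozygous and 15.2% in homozygous libraries. Its mean level placed it at percentile 49 of tested genes.

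The first principal component (41.6% of variance) split the libraries into 2 sets that the genotypes do not explain. Set 1 had 6 libraries, 2 of each genotype: the wild type and homozygous libraries numbered 1 and 2 and the heterozygous ones numbered 3 and 4. Set 2 held the other 5 libraries. Within set 1 the heterozygous mean was 64.7% and the homozygous mean 49.8% of the wild type mean. Within set 2, which has 1 wild type library, they were 55.1% and 58.9%. The order of the deletion genotypes differed between the sets, and that of wild type above both was fixed by the contrast used to choose the gene. The 2 lower homozygous libraries, with 18.8 and 18.5 CPM, were both in set 1.

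Sex was not balanced over the genotypes. Xist, the RNA of the inactive X chromosome, was at 1327 to 4297 CPM in all 3 wild type libraries, heterozygous replicate 3 and homozygous replicate 1, and at 0.88 to 1.7 CPM in the other 6 libraries, where the Y-linked gene Ddx3y was at 43.5 to 110.4 CPM. None of the 3 wild type libraries was Xist-low, so sex and genotype cannot be told apart for the 6 Xist-low libraries. Among the 5 Xist-high libraries, Itgbl1 was at 38.8 CPM in wild type, 25.2 CPM (65.0% of wild type) in the heterozygous and 18.8 CPM (48.6%) in the homozygous library. Among the 8 deletion libraries, the 2 Xist-high ones had a mean of 22.0 CPM and the 6 Xist-low ones 22.7 CPM. With the Xist level as a covariate, the log2 differences from wild type were -0.89 and -0.76.

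**Figure D2:**
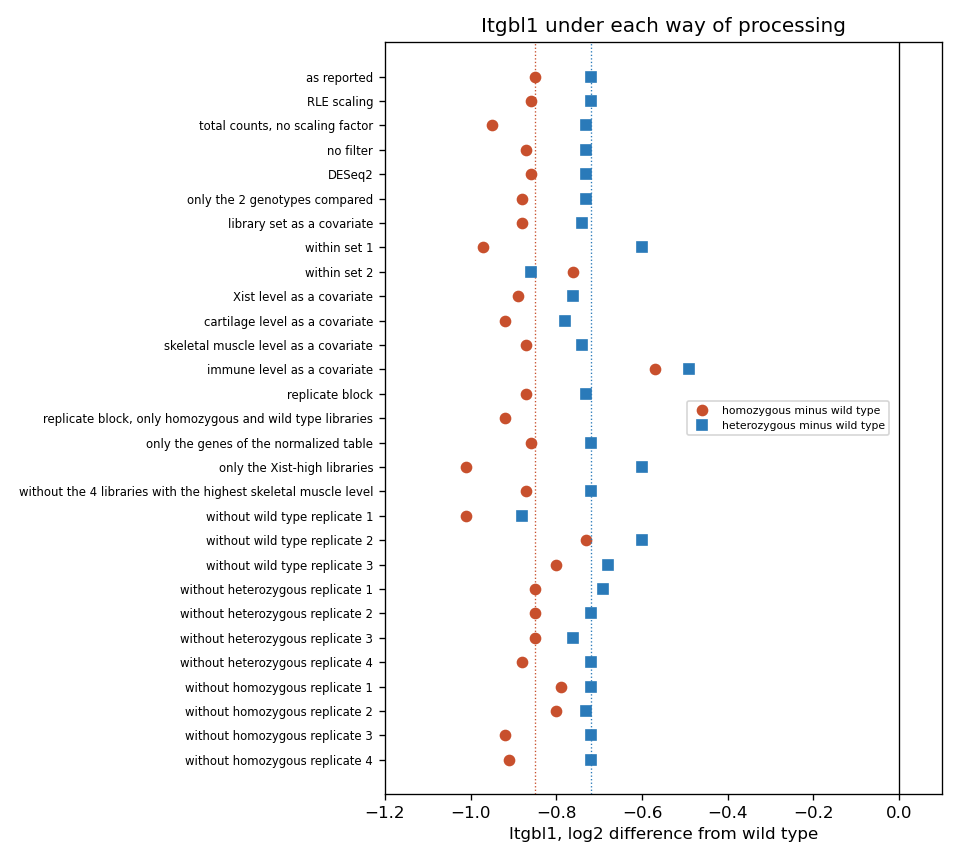
Log2 difference of Itgbl1 from wild type (x axis) under each way of processing the counts (y axis), for homozygous (circles) and heterozygous (squares) libraries. Dotted lines mark the reported values of -0.85 and -0.72. Every point lies below 0, and the contrast used to choose the gene enters each of them. The points nearest to 0 are those with the immune level as a covariate, at -0.57 and -0.49.

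Genes beside Itgbl1 on chromosome 14 were read next. Of 21 genes annotated within 1 Mb, 5 code for protein, and these 5 were tested. All 5 had negative log2 differences in both comparisons with wild type, with medians of -0.23 (homozygous) and -0.25 (heterozygous), against 0.0155 and 0.0018 over all tested genes. None passed an adjusted p of 0.05. Nalcn and Fgf14, the immediate neighbours, had an unadjusted p under 0.05 in the heterozygous comparison, 2 of 5 against 0.495% of all genes, and none of the 5 did in the homozygous comparison.

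Nalcn encodes the sodium leak channel that sets the resting potential of neurons. Its wild type libraries had 6.39, 8.26 and 11.5 CPM. Its heterozygous libraries had 4.89, 5.41, 6.07 and 5.57 CPM, all below wild type. Its homozygous libraries had 7.49, 7.53, 5.5 and 5.08 CPM, and 2 of these lay within the wild type range. The log2 difference from wild type was -0.67 (SE 0.24, unadjusted p = 0.0163, edgeR) for heterozygous and -0.45 (SE 0.24, unadjusted p = 0.0852, edgeR) for homozygous libraries. With the Xist level as a covariate the heterozygous value was -0.44 (unadjusted p = 0.188), and without wild type replicate 3 it was -0.42 (unadjusted p = 0.108). Without wild type replicate 1 the homozygous value was -0.63 (unadjusted p = 0.0294), and with total counts and no scaling factor -0.57 (unadjusted p = 0.0471, edgeR). The heterozygous value was -0.67 (unadjusted p = 0.0996, edgeR) without the 4 libraries with the highest skeletal muscle level.

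Fgf14 encodes an intracellular fibroblast growth factor homologous factor that binds voltage-gated sodium channels. Its wild type libraries had 3.43, 6.41 and 14.4 CPM, its heterozygous libraries 2.99, 5.02, 2.84 and 4.28 CPM and its homozygous libraries 2.52, 3.38, 6.68 and 5.59 CPM. The groups overlapped, and wild type replicate 3 was far above all other libraries. The log2 difference from wild type was -1.10 (SE 0.46, unadjusted p = 0.0352, edgeR) for heterozygous and -0.82 (SE 0.46, unadjusted p = 0.0971, edgeR) for homozygous libraries. Without wild type replicate 3 the heterozygous value was -0.38 (unadjusted p = 0.389) and the homozygous value -0.11 (unadjusted p = 0.797). Without wild type replicate 1 the homozygous value was -1.19 (unadjusted p = 0.0187), and without heterozygous replicates 1, 3 or 4 the heterozygous unadjusted p was 0.0788, 0.0806 or 0.0506. In the fit of homozygous and wild type libraries alone with the replicate number as a block, the homozygous value was -0.89 (unadjusted p = 0.00525, edgeR). With the library set as a covariate the homozygous and heterozygous values were -0.92 (unadjusted p = 0.0152) and -1.10 (unadjusted p = 0.00555), and with the Xist level -1.43 (unadjusted p = 0.0533) and -1.66 (unadjusted p = 0.0254). With the immune level as a covariate they were 0.07 (unadjusted p = 0.908), with the sign turned, and -0.29 (unadjusted p = 0.625). The kit keeps strand, but the strand setting of the counting is not given in the sources used here, so reads from the overlapping ends of Itgbl1 and Fgf14 could have been shared. Across the 11 libraries Fgf14 had r = 0.70 and Nalcn r = 0.56 with Itgbl1 on the log2 CPM scale. Both share libraries and depth with Itgbl1. On deviations from the genotype means these were 0.71 and 0.05.

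The other near genes had smaller values. The log2 differences were -0.23 (SE 0.16) and -0.25 (SE 0.16) for Tmtc4, a transmembrane O-mannosyltransferase. Pcca, a subunit of propionyl-CoA carboxylase, had -0.19 (SE 0.20) and -0.17 (SE 0.20). Ggact, an enzyme of crosslinked-protein breakdown, had -0.02 (SE 0.24) and -0.21 (SE 0.24), in the homozygous and heterozygous comparisons in each case. The antisense gene 1700024B18Rik, beyond the end of Itgbl1, had 0 or 1 counts per library and was not tested. Of 19 tested genes lying 1 to 5 Mb away, 11 had negative values in homozygous and 13 in heterozygous libraries, with medians of -0.14 and -0.06, and none had an unadjusted p under 0.05. That farther window was chosen after the nearer values were seen.

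**Figure D3:**
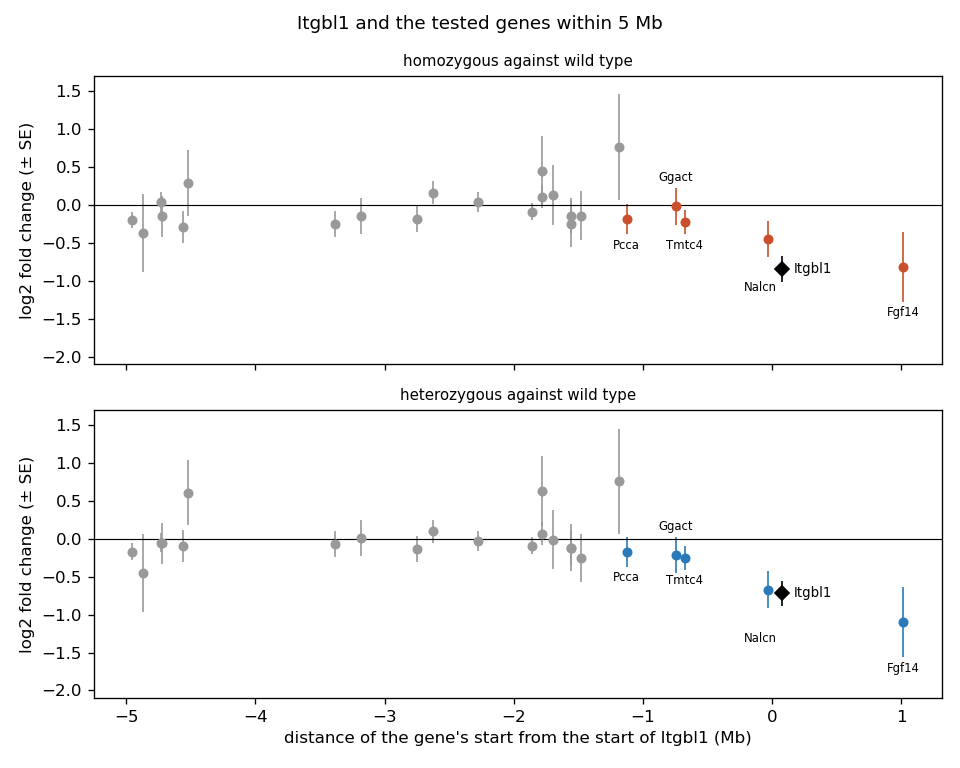
Log2 fold change (y axis, bars are SE) of Itgbl1 (black diamond, drawn slightly right of 0) and of the tested genes within 5 Mb, against the distance of each gene's start from the start of Itgbl1 in Mb (x axis). Coloured points are the 5 genes whose spans lie within 1 Mb and grey points the 19 genes at 1 to 5 Mb. The 5 near genes are all below 0 in both panels, with Nalcn and Fgf14 the lowest of them.

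Integrin subunits span the membrane as alpha-beta pairs and bind matrix and other cells, and the beta subunits resemble Itgbl1 in sequence. Of 27 subunit genes, 26 were tested, and none passed an adjusted p of 0.05 or had an unadjusted p under 0.05 in any of the 3 comparisons. In the blocked fit of homozygous and wild type libraries alone, 3 of 26 had an unadjusted p under 0.05, against 6.31% of all genes in that fit. Their median log2 difference was 0.15 in homozygous and 0.10 in heterozygous libraries, and their values ran from -0.43 to 0.53 and from -0.33 to 0.46. Itgb7, a lymphocyte beta subunit, had the lowest homozygous value, -0.43 (SE 0.22), with 9.86 CPM in wild type and 7.28 CPM in homozygous libraries. Itgam, a myeloid alpha subunit, had the highest, 0.53 (SE 0.30), with 13.0 CPM in wild type and 18.8 CPM in homozygous libraries. Itgb1, the common beta partner, was at 437 ± 67.2 CPM (SD, n = 3) in wild type, 436 ± 83.0 CPM (SD, n = 4) in heterozygous and 434 ± 126 CPM (SD, n = 4) in homozygous libraries. Its log2 differences from wild type were 0 and -0.01 (SE 0.24 each).

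Per kb of exon, the level of Itgbl1 was 6.38 CPM per kb, in the middle of the family's range, with 10 subunits above it and 16 below. The nearest above was Itga2b at 6.48 CPM per kb and the nearest below Itga11 at 5.3 CPM per kb. Itgb1 was the highest, at 107 CPM per kb, and Itgae the lowest, at 0.265 CPM per kb. Across the 11 libraries Itgb7 had r = 0.57 with Itgbl1, and Itga11, a collagen receptor subunit of fibroblasts that was named after its values were seen, had r = 0.81 on deviations from the genotype means and -0.06 without removing these means.

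**Figure D4:**
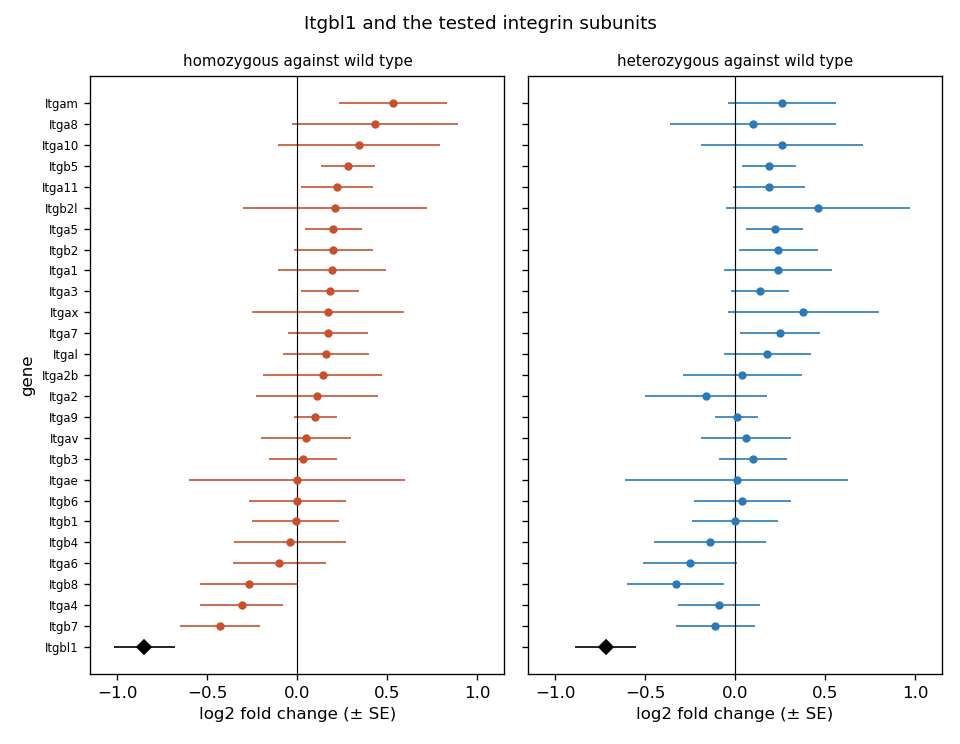
Log2 fold change from wild type (x axis, bars are SE) of Itgbl1 (black diamond) and the 26 tested integrin subunits (y axis), for homozygous (left) and heterozygous (right) libraries. The subunits lie between -0.43 and 0.53 in homozygous libraries, and Itgbl1 at -0.85.

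Genes that act with integrins were read from lists. Of 18 adhesion partners, none had an unadjusted p under 0.05 against wild type in either deletion genotype, and Parva, which links integrins to actin, was at 432 ± 22.0 CPM (SD, n = 3) in wild type and 420.1 ± 13.8 CPM (SD, n = 4) in homozygous libraries. The next by level, Tln1 (talin, which activates integrins) and Vcl (vinculin), had homozygous log2 differences of 0.06 (SE 0.16) and 0.11 (SE 0.29). Of 21 matrix ligands none had an unadjusted p under 0.05, and the median log2 differences were 0.18 (homozygous) and 0.09 (heterozygous). Fn1, the fibronectin gene, had 0.46 (SE 0.31), Thbs1 (thrombospondin) 0.45 (SE 0.52) and Postn (periostin) 0.08 (SE 0.33) in homozygous libraries.

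TGF-beta signalling genes, a pathway active in the same connective tissues, were counted as well. Of 18 genes none passed an adjusted p of 0.05. Smad7, an inhibitor of the pathway, had log2 differences of 0.58 (SE 0.17, unadjusted p = 0.00577, edgeR) and 0.38 (SE 0.17, unadjusted p = 0.0460, edgeR) in homozygous and heterozygous libraries, and Tgfbi, a matrix protein induced by TGF-beta, had 0.79 (SE 0.29, unadjusted p = 0.0187, edgeR) in heterozygous libraries. These are 1 of 18 genes in the homozygous and 2 of 18 in the heterozygous comparison, against 1.81% and 1.75% of all genes, and both were named after their values were seen. The 3 most abundant members, Ctgf, Ltbp3 and Tgfbr1, had 0.60 (SE 0.31), 0.20 (SE 0.24) and -0.21 (SE 0.32) in homozygous libraries.

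Cartilage is a tissue in which Itgbl1 is known, and its markers overlapped between genotypes. The summed level of 21 cartilage genes was 7913, 19144 and 10416 CPM in wild type, 12891, 13497, 20568 and 9797 CPM in heterozygous and 12749, 13408, 15618 and 14166 CPM in homozygous libraries. None of the 21 genes had an unadjusted p under 0.05 against wild type. Col2a1, the main collagen of cartilage, had log2 differences of 0.17 (SE 0.34) in both comparisons. Over the 11 libraries the summed cartilage level had r = 0.04 and rho = 0.22 with Itgbl1, and r = 0.68 on deviations from the genotype means. With it as a covariate, Itgbl1 differed from wild type by -0.92 and -0.78 on the log2 scale.

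Of 18 fibroblast genes, the small matrix proteoglycan gene Dcn was lower at an unadjusted p under 0.05 in both comparisons, with log2 differences of -0.54 (SE 0.25, unadjusted p = 0.0479, edgeR) in homozygous and -0.59 (SE 0.25, unadjusted p = 0.0343, edgeR) in heterozygous libraries. Fap, a membrane protease of activated fibroblasts, had -0.50 (SE 0.21, unadjusted p = 0.0346, edgeR) in homozygous libraries and -0.35 (SE 0.21, unadjusted p = 0.119, edgeR) in heterozygous libraries. These 2 of 18 and 1 of 18 genes compare with 1.21% and 0.495% of all genes, and both were named after their values were seen. The list as a whole went both ways, with 11 of 18 genes negative in each comparison and medians of -0.04 (homozygous) and -0.09 (heterozygous). Dpt, a dermal matrix protein, had the highest homozygous value, 0.48 (SE 0.46). The summed fibroblast level had r = 0.22 and rho = 0.09 with Itgbl1 over the 11 libraries. Without the 2 libraries farthest from the median fibroblast level, r was -0.56. The most abundant members, Col1a2, Col3a1 and Col6a1, had homozygous values of -0.13 (SE 0.36), -0.26 (SE 0.27) and -0.02 (SE 0.22).

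Skeletal muscle RNA was high in some deletion libraries. The summed level of 18 muscle genes was 34.5, 97.0 and 55.3 CPM in wild type, 71.4, 782, 46.2 and 2159 CPM in heterozygous and 179, 557, 1046 and 76.4 CPM in homozygous libraries, so 4 deletion libraries had at least 557 CPM and the other 7 libraries at most 179 CPM. The 4 high libraries were all Xist-low, and 3 deletion libraries lay within the wild type range. At an unadjusted p under 0.05, 9 of 18 muscle genes were higher in homozygous and 17 of 18 in heterozygous libraries, against 1.81% and 1.75% of all genes. With the replicate number as a block over all libraries, 7 of 18 and 2 of 18 had an unadjusted p under 0.05. Of all genes, 1.73% and 1.44% did so in that fit, in either direction. The log2 differences of Itgbl1 were -0.87 and -0.74 with the summed muscle level as a covariate, and -0.87 and -0.72 without those 4 libraries. The part of muscle RNA in the level of Itgbl1 was not tested.

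The summed immune level was higher where Itgbl1 was lower. The summed level of 8 immune genes was 207, 191 and 189 CPM in wild type, 252, 198, 216 and 246 CPM in heterozygous and 256, 241, 222 and 224 CPM in homozygous libraries, and 7 of 8 deletion libraries were above all wild type libraries. Across the 11 libraries its r with Itgbl1 was -0.83 and its rho -0.85 on the log2 scale. Leaving out the 2 libraries farthest from the median immune level gave r = -0.69, and deviations from the genotype means gave r = -0.60. No p is given for these, since the contrast by which Itgbl1 was chosen enters them. Within the 6 libraries of set 1, wild type included, r was -0.93, and set 2 holds 5 libraries, fewer than the 6 taken here as the least for a correlation. Within the 8 deletion libraries, which leave that contrast out, r was -0.62 (exact permutation p = 0.112, adjusted 0.354 over 24 lists) and rho -0.71 (exact permutation p = 0.0576), with r = -0.61 without the 2 libraries farthest from the median immune level. The relation therefore did not pass the test among deletion libraries alone. It was also not particular to the immune list there. Sustentacular markers had r = 0.71 (exact permutation p = 0.0527), and the 2 tested of 8 erythrocyte genes had r = -0.64 (exact permutation p = 0.0856). Mature olfactory sensory neuron markers had r = 0.63 (exact permutation p = 0.0865) and tendon markers r = 0.62 (exact permutation p = 0.0969). Respiratory ciliated cell markers had r = -0.63 (exact permutation p = 0.101). The adjusted values were 0.354 each.

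Among the immune genes, C1qb, a complement component made by macrophages, had wild type levels of 38.5, 29.7 and 32.5 CPM, heterozygous levels of 56.8, 37.5, 41.0 and 48.9 CPM and homozygous levels of 49.0, 51.0, 42.5 and 46.1 CPM. Only heterozygous replicate 2 fell within the wild type range. Its log2 differences were 0.49 (SE 0.17, unadjusted p = 0.0123, edgeR) and 0.46 (SE 0.17, unadjusted p = 0.0176, edgeR) in homozygous and heterozygous libraries. Cd68, a lysosomal protein of macrophages, had 0.57 (SE 0.21, unadjusted p = 0.0202, edgeR) in heterozygous libraries. These are 1 of 8 genes in the homozygous and 2 of 8 in the heterozygous comparison, against 1.81% and 1.75% of all genes. Ptprc, the common leukocyte antigen, had 0.00 (SE 0.27) and 0.02 (SE 0.27), and Cx3cr1 had 0.05 (SE 0.19) and 0.04 (SE 0.19). The other 2 abundant members, Csf1r and C1qa, had homozygous values of 0.17 (SE 0.12) and 0.32 (SE 0.18). With the summed immune level as a covariate, chosen after its correlation was seen, the log2 differences of Itgbl1 from wild type were -0.57 and -0.49. Whether immune RNA has a part in the level of Itgbl1 was not tested.

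**Figure D5:**
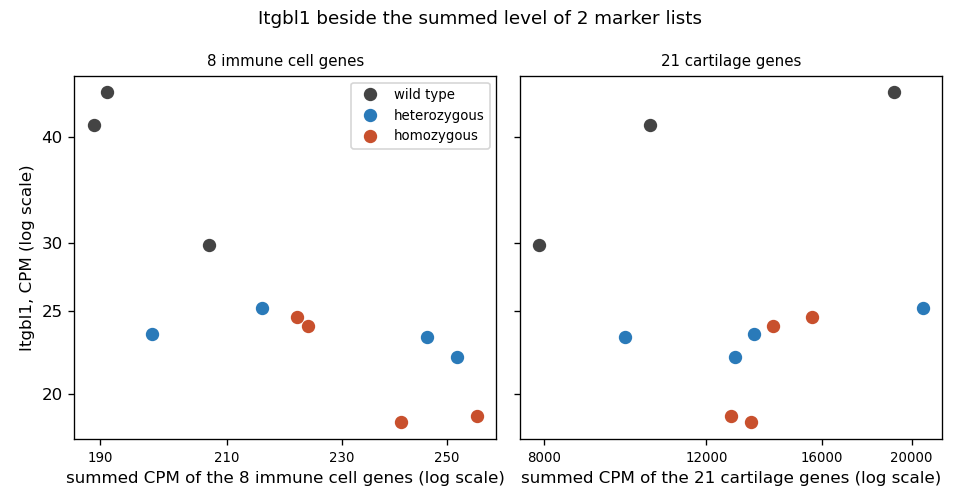
Itgbl1 in CPM (y axis, log scale) against the summed CPM of 8 immune cell genes (left) and 21 cartilage genes (right) on log x axes, 1 point per library. In the immune panel Itgbl1 is lower where the immune level is higher (r = -0.83). In the cartilage panel r is 0.04, and on deviations from the genotype means r is -0.60 for the immune and 0.68 for the cartilage list, while the heterozygous and homozygous points overlap on the y axis in both panels.

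The same blocked fit of homozygous and wild type libraries, in which 6.31% of all genes had an unadjusted p under 0.05, gave more such genes in several lists. It gave 6 of 21 matrix ligands, 4 of 18 TGF-beta genes, 2 of 21 cartilage genes, 3 of 8 immune genes and 18 of 18 muscle genes. After adding the Xist level to the fit, 2.9% of all genes had an unadjusted p under 0.05 in the homozygous and 2.84% in the heterozygous comparison. The muscle and immune lists then had 0 such genes in both comparisons. Integrin subunits had 3 and 1, matrix ligands 3 and 2, TGF-beta genes 3 and 3, cartilage genes 1 and 0, fibroblast genes 2 and 1 and adhesion partners 0 and 0, in that order.

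Apart from the immune list, the 24 lists had r between -0.56 and 0.59 with Itgbl1 over the 11 libraries. The bone list had r = -0.02, with 1 of 14 genes (Ifitm5, in heterozygous libraries) higher at an unadjusted p under 0.05, against 1.75% of all genes. Mature olfactory sensory neuron markers had r = 0.30, and all 11 had negative log2 differences in both comparisons, with medians of -0.31 and -0.19 and no unadjusted p under 0.05. Sustentacular cell markers, of the epithelium's supporting cells, had r = 0.29 and endothelial markers r = -0.20. The 4 tested Taar genes, which the deletion removes, had r = 0.59.

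The genes whose levels were most like that of Itgbl1 were taken as the 5 highest and 5 lowest Pearson r on log2 CPM over the 11 libraries, as a description, since the genotype contrast and the library composition enter every r. Of 16573 other genes, 11 had r of at least 0.8 and 25 had r of -0.8 or below. The highest were Ganc (0.86, a neutral alpha-glucosidase), Olfr968 (0.86, an odorant receptor), Msh3 (0.85, a DNA mismatch repair protein), Recql (0.85, a DNA helicase) and Hlcs (0.84, which attaches biotin to carboxylases). Their differences between genotypes were small except for Olfr968. Olfr968 was at 1.62 ± 0.275 CPM (SD, n = 3) in wild type, 1.01 ± 0.282 CPM (SD, n = 4) in heterozygous and 0.694 ± 0.183 CPM (SD, n = 4) in homozygous libraries. Its mean over all libraries was 1.06 CPM, a low level at which few reads a library make counting error large. For Ganc the wild type mean was 21 ± 1.01 CPM (SD, n = 3) and the homozygous mean 19.1 ± 0.643 CPM (SD, n = 4).

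The most opposite genes were Rbm24 (-0.92, an RNA-binding protein of muscle and inner ear), Slfn2 (-0.91, a schlafen protein of immune cells), Alk (-0.89, a receptor tyrosine kinase), C1qb (-0.88) and Emp2 (-0.88, an epithelial membrane protein). Slfn2 was at 7.68 ± 1.02 CPM (SD, n = 3) in wild type, 11 ± 1.2 CPM (SD, n = 4) in heterozygous and 12.9 ± 3.03 CPM (SD, n = 4) in homozygous libraries. Alk had 1.36 ± 0.362 CPM (SD, n = 3), 2.65 ± 0.399 CPM (SD, n = 4) and 2.79 ± 0.463 CPM (SD, n = 4) in that order. Rbm24 was at 48.3 ± 3.26 CPM (SD, n = 3) in wild type and 57.1 ± 2.1 CPM (SD, n = 4) in homozygous libraries. None of the 10 genes had an adjusted p under 0.05 against wild type.

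Once the genotype means were removed, other genes took their place. The highest r on deviations were those of Tm7sf3 (0.95), Ncmap (0.91), S100b (0.90, a glial calcium-binding protein), Lig1 (0.89, a DNA ligase) and Alx1 (0.89, a homeobox factor of the facial mesenchyme), and the lowest those of Cx3cr1 (-0.91, the fractalkine receptor of macrophages and microglia), Grap (-0.88), Tsnaxip1 (-0.88), Dynlt1f (-0.87) and Cpn1 (-0.86). None of the 5 highest genes and 2 of the 50 highest were shared between both rankings. The named genes depended on the measure in other ways too. By Spearman's rho, 1 of the 5 highest and 0 of the 5 lowest were shared with the ranking by r over all libraries, and none were shared without the 2 libraries farthest from the median Itgbl1 level or within the 8 deletion libraries. S100b, for example, had 56.5, 85.0 and 69.5 CPM in wild type libraries, where Itgbl1 had 29.9, 45.1 and 41.3 CPM, and 52.7, 56.8, 85.5 and 79.5 CPM in homozygous libraries, where Itgbl1 had 18.8, 18.5, 24.6 and 24.0 CPM. In the heterozygous libraries S100b had 70.1, 68.6, 68.2 and 73.7 CPM, where Itgbl1 had 22.1, 23.5, 25.2 and 23.3 CPM, and the library with the highest Itgbl1 level had the lowest S100b level. S100b was named for its r on deviations, so these values only show what that r is made of.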

How the data were processed

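RNA-seq libraries of whole MOE (3 wild type, 4 heterozygous, 4 homozygous) were analysed from the deposited tables. According to the submitters' processing notes, Trimmomatic 0.36, HISAT2 2.1.0, featureCounts (Subread 1.6.2) and DESeq2 1.20.0 were used with mm10. The authors deposited raw counts per gene and a normalized signal, which are the counts divided by size factors. The deposited signal gave whole reads for 100% of 254419 values (tolerance 0.001 reads), equal to the raw counts, and 1292 entries were in the raw table only. The raw counts were filtered with filterByExpr, scaled by TMM and fitted with edgeR 4.0.16 (R 4.3.3) for genotype over all 11 libraries, with Benjamini-Hochberg adjustment over 16574 genes. A standard error is the log2 fold change divided by the square root of F. Log2 CPM used a prior count of 2, and list sums a pseudocount of 0.1 CPM. Itgbl1 and the lists were chosen with earlier results of these data known. Intervals on counts are exact Poisson and cover counting error only. RLE scaling, no filter, DESeq2 1.42.0, covariates, library sets and left-out libraries were tried.

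The rule for named genes was Itgbl1, the 5 highest and 5 lowest genes by r and by r of deviations, integrin subunits and annotated genes within 1 Mb. Of other lists it took the 3 most abundant members, not all of which are named. Smad7, Tgfbi, Dcn, Fap, Dpt, Cd68, Ptprc and Ifitm5 were named outside this rule, for their values. In simulated data for homozygous against wild type, 99 of 200 genes changed 2-fold (49.5%) were recovered among 16379 genes, with 2 false calls. The simulation gave each gene the spread typical of its level and had no library sets, so it does not give the recovery in these data. Same-numbered homozygous and wild type libraries deviated together from their group means (r = 0.33, 0.42 and 0.40). Heterozygous libraries did not, either with wild type (r = -0.19, -0.38 and -0.23) or with homozygous ones (r = -0.48, -0.40, -0.52 and -0.58). The numbers, which come from the titles, were taken to pair the homozygous and wild type libraries only. Same-numbered homozygous and wild type libraries were also in the same library set, and same-numbered heterozygous ones in the other set. Pairs and library sets therefore cannot be told apart.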

Additional observations from a re-analysis of the deposited data

Results flagged for a closer look

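Of 58 groups of 4 libraries, from 29 genes and list sums named in the text, 2 held a library far from the other 3 by Dixon's ratio, the gap to the nearest library over the whole range, at its 95% limit. Chance alone gives about 1 such group in 20. Neither group was one of Itgbl1. For Emp2, homozygous replicate 3 lay below the other homozygous libraries, with 71.6 CPM against 81.2 to 82.1 CPM (ratio 0.908). For Lig1, heterozygous replicate 2 lay above the other heterozygous libraries, with 70.4 CPM against 56.8 to 59.1 CPM (ratio 0.831). Itgbl1 itself gave ratios of 0.563 in the heterozygous and 0.104 in the homozygous group.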

How the results depend on the processing

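The level of Itgbl1 was below wild type under all 28 alternatives for homozygous and all 27 for heterozygous libraries. The contrast used to choose the gene enters all of these, so the shared sign is a description and no test. Leaving out 1 library at a time gave log2 differences from -1.01 to -0.73 for homozygous and from -0.88 to -0.60 for heterozygous libraries, with wild type replicates 1 and 2 at the ends. Leaving out 1 library gave -0.20 to -0.07 for homozygous against heterozygous. The immune level as a covariate, added after the data were seen, moved the differences from wild type to -0.57 and -0.49; the cause was not tested. For homozygous against heterozygous, the difference was -0.37 within set 1 and 0.10, the opposite sign, within set 2. With total counts and no scaling factor the 3 differences were -0.95, -0.73 and -0.22. With the replicate block they were -0.87, -0.73 and -0.14. The block in homozygous and wild type libraries alone, where same-numbered libraries share a library set, gave -0.92.

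The count of genes past an adjusted p of 0.05 was 0 in all 3 comparisons in edgeR, also in each fit without 1 library (0 to 0). At an unadjusted p under 0.05 there were 500 homozygous and 372 heterozygous genes against wild type and 93 between the deletion genotypes. Leaving out 1 library gave 317 to 721, 229 to 614 and 53 to 180 such genes, in that order. With the library set as a covariate there were 1132, 754 and 227, so the shares of all genes depend on the fit. DESeq2 called 8, 3 and 2 genes, and the replicate block in homozygous and wild type libraries alone called 39. With the block over all libraries, Nalcn had a heterozygous difference of -0.60 (unadjusted p = 0.0654, edgeR). Of 657 recounts of list members at an unadjusted p under 0.05, 522 were within 1.5 times the reported count and 135 were not. For Fgf14, with the immune level as a covariate, the homozygous difference was 0.07 and the heterozygous one -0.29 (unadjusted p = 0.625, edgeR); for Nalcn the heterozygous difference was -0.66 (unadjusted p = 0.0728, edgeR). Itgbl1 had 170 to 563 reads a library and a biological coefficient of variation of 18.1%.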
